A study of Saccharomyces cerevisiae with 9 samples.

Results

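The genes examined here encode assembly factors of the small-subunit processome of the budding yeast Saccharomyces cerevisiae. They were chosen by name, as genes whose products are known to build this particle, with earlier results of these data known, and make up 35 of the 7126 genes in the deposited table. RNA-seq of poly-A RNA was run on 3 diploid strains with 3 libraries each, 9 in all. Every strain was of the W303 background and MATa/α, homozygous for mutant alleles of ADE2, HIS3, LEU2, TRP1 and URA3, heterozygous for mutant alleles of CAN1 and LYS2, and carried a pair of chromosome fragments marked with TRP1 and SUP11. Wildtype cells were grown in SC, a synthetic complete medium. The sam1Δ/sam1Δ strain had KANMX, which gives resistance to G418, in place of both copies of SAM1, and was grown in SC with G418. In the sam2Δ/sam2Δ strain a LEU2 cassette replaced both copies of SAM2, and the medium was SC lacking leucine. SAM1 and SAM2 each encode an enzyme that makes AdoMet, the main methyl donor of the cell. All cultures were kept at 30 °C and taken at an OD600 of 0.5 to 0.6. Deletion, marker gene and medium differ together between strains, so their effects cannot be told apart, and nothing in the sources says how the 3 libraries of a strain were separated, so P values measure only the spread between these libraries.

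The small-subunit processome is a large particle that forms in the nucleolus on the start of the ribosomal RNA precursor while that RNA is still being made. The UTP-A and UTP-B complexes bind the leading part of the precursor, the U3 small nucleolar RNA pairs with it inside the U3 snoRNP, and further factors, kinases and RNA helicases join as the RNA is folded, modified and cut on its way to the small ribosomal subunit. Its genes belong to the ribosome biogenesis regulon of yeast, whose transcripts are abundant when nutrients are plentiful and are turned down under stress.

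The deposited values are signal, the reads of a gene after scaling for library size. Total signal ranged from 9.38 to 11.9 M, resting on 4.90 to 23.8 M reads, and 1 read was worth 0.443 to 2.18 units. The targeted genes followed the labels: SAM1 had a signal of 0 to 1.77 in the sam1Δ/sam1Δ libraries and SAM2 of 2.43 to 6.89 in the sam2Δ/sam2Δ libraries, against 2417 and 17280 or more elsewhere. The library labelled sam2Δ/sam2Δ replicate 3 stood apart by genes that MATa/α diploids keep low. MF(ALPHA)1, the alpha-factor pheromone gene, had a signal of 1473 there and 18.2 to 56.6 in the other 8 libraries, and STE3, the a-factor receptor gene of alpha cells, had 282 against 45.7 to 74.6. Of 16 mating-type markers 11 were highest in that library, and the 8 haploid-specific genes summed to 2333 there against 791 to 1379 elsewhere, while the 5 a-specific genes summed to 565 within a range of 415 to 874. No defining marker was at 0 except MFA2 in sam2Δ/sam2Δ replicate 1. Wildtype replicate 1 stood apart by the ribosome biogenesis and stress genes given below. For the processome genes, medians and calls that change without these libraries are given with and without them. The same holds for calls of other named genes, but only in part for the other gene lists. The part that other cells or their state play in the results was not tested, and in bulk RNA fewer cells of a type and less RNA per cell cannot be told apart.

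All 35 genes had enough signal to be tested in every comparison. The least covered value was 58 reads, for UTP6 in sam2Δ/sam2Δ replicate 2, where counting alone gives an error of 13.1%.

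The processome genes moved together between libraries, and more within each strain than between strains. On the log2 scale, relative to each gene's mean over the 9 libraries, the median of the 35 genes was 1.30, -0.61 and -0.41 in wildtype replicates 1 to 3. For sam1Δ/sam1Δ it was -0.77, 0.61 and 0.45, for sam2Δ/sam2Δ -0.98, -0.47 and 0.81. Each strain therefore held libraries on both sides of the overall mean, and the 3 strains overlapped. The median gene was 4.86-fold higher in wildtype replicate 1, the highest library, than in sam2Δ/sam2Δ replicate 1, the lowest. Together the 35 genes took 0.61%, 0.18% and 0.22% of the signal in wildtype, 0.17%, 0.44% and 0.40% in sam1Δ/sam1Δ, then 0.15%, 0.22% and 0.55% in sam2Δ/sam2Δ.

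The order of the libraries was nearly the same for every gene. Within wildtype, 35 of 35 genes had their highest value in replicate 1 and 34 their lowest in replicate 2. Within sam1Δ/sam1Δ, 35 of 35 were lowest in replicate 1 and 34 were highest in replicate 2. Within sam2Δ/sam2Δ, 35 of 35 were highest in replicate 3 and 34 were lowest in replicate 1. Between the highest and the lowest library of a strain, the median gene differed 3.78-fold in wildtype, 2.6-fold in sam1Δ/sam1Δ and 3.45-fold in sam2Δ/sam2Δ. The within-strain SD of log2(signal + 1) had a median of 0.95 over the 35 genes and of 0.30 over all 6139 genes tested across the 9 libraries, and 3.91% of all genes reached 0.95 or more. The least variable member, UTP22, had an SD of 0.57, which 16.9% of all genes reached.

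**Figure D1:**
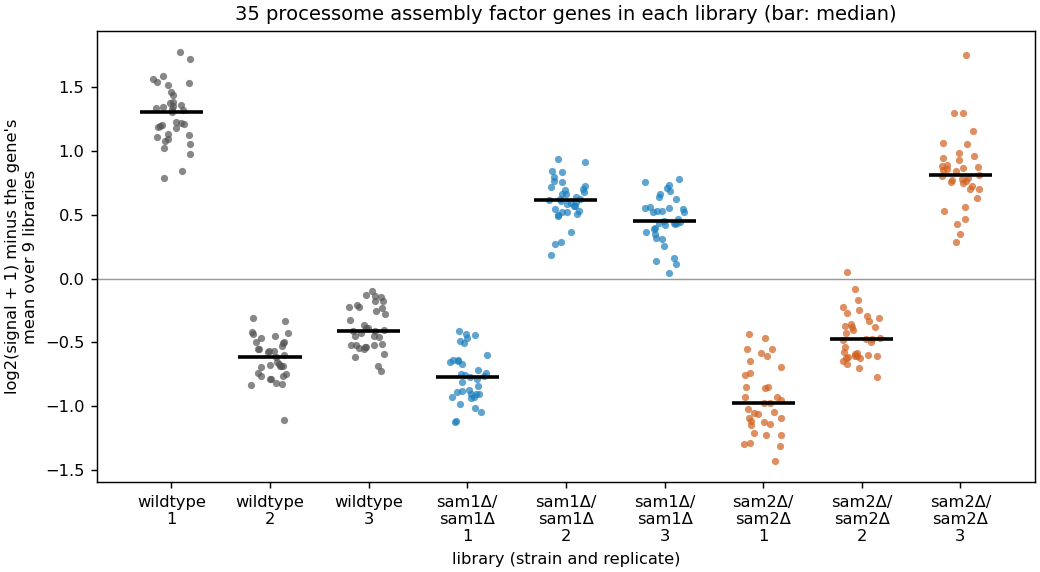
Each point is 1 of the 35 processome genes in 1 library, as log2(signal + 1) minus that gene's mean over the 9 libraries, with a bar at the median. The points of wildtype replicate 1 lie highest, with a median of 1.30, and those of sam2Δ/sam2Δ replicate 1 lowest, with a median of -0.98, while each strain has libraries above and below 0.

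A like order of the libraries was seen in other assembly genes. The 31 other processome factors had medians of 1.37 in wildtype replicate 1 and -0.96 in sam2Δ/sam2Δ replicate 1 on the same scale, and the 61 large-subunit assembly factors had 1.35 and -0.96. The 15 genes of RNA polymerase I and its factors, which transcribe the ribosomal RNA precursor, reached 1.02 and -0.88. The 131 ribosomal protein genes tested spanned less, from -0.36 to 0.64, and were on the opposite side of their mean from the members in 3 libraries, sam2Δ/sam2Δ replicate 3 among them. Casein kinase 2, whose 4 subunits join Utp22 in the UTP-C complex but serve many other pathways, spanned only -0.19 to 0.18. The 25 general stress genes ran the other way, with a median of -1.28 in wildtype replicate 1 and 0.78 in wildtype replicate 2, and their share of a library's signal ranged from 1.36% in wildtype replicate 1 to 4.86% in sam2Δ/sam2Δ replicate 1. Stress genes were above their mean in the 5 libraries in which the processome median was below 0, and below it in the other 4. Whether the stress state of the cultures has a part in the processome levels was not tested.

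**Figure D2:**
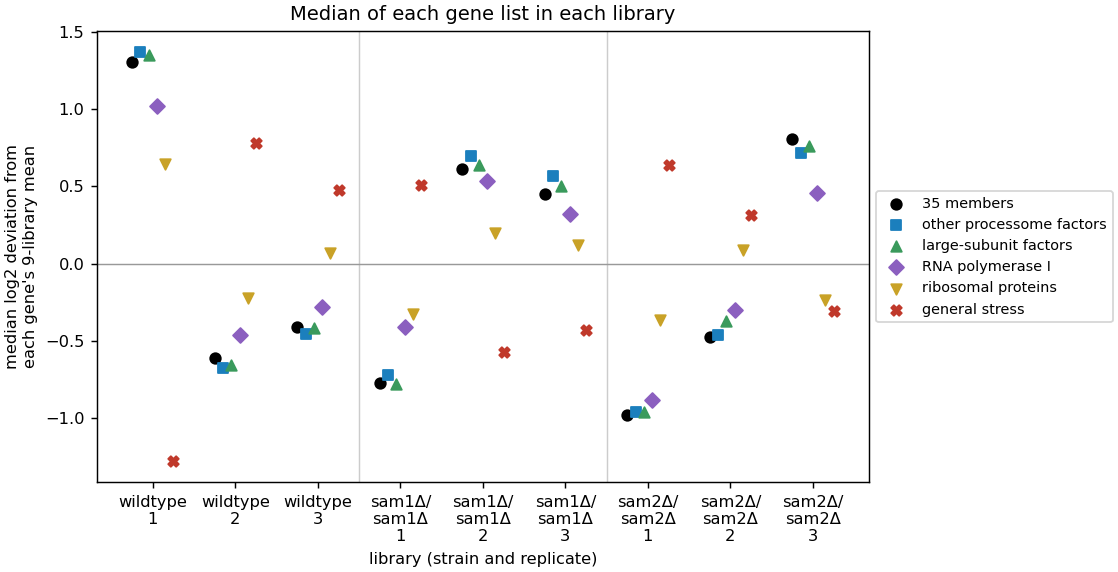
For each library, the symbols give the median log2 deviation of a gene list from each gene's 9-library mean. Assembly factors of both subunits and RNA polymerase I follow the 35 members, ribosomal proteins span less and lie on the other side of 0 from the members in wildtype replicate 3 and in sam2Δ/sam2Δ replicates 2 and 3, and general stress genes lie on the opposite side of 0, from -1.28 in wildtype replicate 1 to 0.78 in wildtype replicate 2.

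The stretch before each start codon was searched for the core letters of the PAC and RRPE elements, which mark ribosome biogenesis promoters in yeast. The members were chosen by name from that class of genes, so their share of matches is a description and is not read as bearing on the swing between libraries. PAC is bound by the repressors Dot6 and Tod6 and RRPE by Stb3. In the 250 bases before the start codon, on either strand, GATGAG was found in 32 of 35 members (91.4%) against 17% of all 6007 promoters, and AAAAATTTT was found in 22 of 35 (62.9%) against 6.74%. Both occurred together in 20 members (57.1%) and in 3.35% of all promoters. Counted back from the start codon, the 47 PAC matches of the members had a median position of -111 and the 28 RRPE matches of -133.5. Stretches of the R64 reference are shown for the genes with the widest range over libraries, ENP1 and RRP12, for UTP6, NAN1 and the U3 snoRNP genes described below, for NOC4 with 3 overlapping PAC matches, and for UTP22, the member with neither. Each reads 5′ to 3′ on the gene's strand, and capitals mark GATGAG or CTCATC and AAAAATTTT or AAAATTTTT. Around each outermost match 10 bases are kept, and for UTP22 the last 120 bases before the start codon are given.
ENP1, chrII:714560-714601, minus strand: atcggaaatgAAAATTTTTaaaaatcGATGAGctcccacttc
RRP12, chrXVI:529498-529574, plus strand: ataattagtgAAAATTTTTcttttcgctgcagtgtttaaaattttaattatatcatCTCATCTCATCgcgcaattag
UTP6, chrIV:1358992-1359041, minus strand: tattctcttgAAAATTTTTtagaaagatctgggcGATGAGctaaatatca
NAN1, chrXVI:310053-310109, plus strand: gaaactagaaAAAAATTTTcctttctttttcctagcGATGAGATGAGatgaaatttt
NOP56, chrXII:545960-546004, plus strand: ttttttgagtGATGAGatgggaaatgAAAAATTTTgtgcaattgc
NOP58, chrXV:898467-898505, minus strand: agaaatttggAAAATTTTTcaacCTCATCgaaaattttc
RRP9, chrXVI:802229-802254, plus strand: acattttataGATGAGctttgattaa
NOC4, chrXVI:821475-821510, minus strand: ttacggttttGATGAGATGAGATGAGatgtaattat
UTP22, chrVII:662238-662357, plus strand: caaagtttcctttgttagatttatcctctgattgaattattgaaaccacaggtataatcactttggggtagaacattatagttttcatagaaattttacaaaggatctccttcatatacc

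A match is a description of these letters, not of a bound site. The log2 range of a gene over the 9 libraries, its highest minus its lowest value, had a median of 2.38 in the 20 genes with both cores (1.45 to 3.20), of 2.23 in the 12 with PAC only and of 2.41 in the 2 with RRPE only, UTP4 and UTP15. UTP22, the only member with neither, had the smallest range of the 35, 1.29. The genes with both cores covered nearly the whole span, since NOP56 at 1.45 was second lowest and ENP1 at 3.20 highest. Across the 35 genes, which share the same libraries, Spearman's rho of the range was -0.08 with coding length and 0.04 with mean signal per kb.

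**Figure D3:**
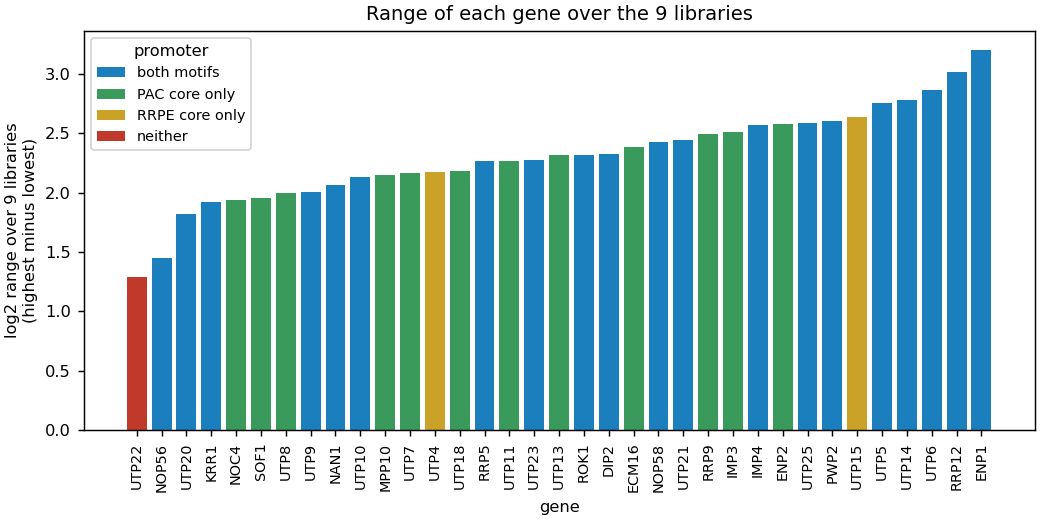
Bars give each gene's highest minus lowest log2(signal + 1) over the 9 libraries, coloured by the motif cores found in the 250 bases before its start codon. UTP22, with neither core, is shortest at 1.29, and genes with both cores stand at nearly every height up to 3.20 for ENP1.

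No processome gene met the cutoffs in sam1Δ/sam1Δ. DEGs had to pass 2 cutoffs in limma, unadjusted P up to 0.05 and log2FC 0.58 or more away from 0, which took in 1.15% of the 6109 genes tested in this comparison. Of the 35 members 0 were called, 0 had an unadjusted P up to 0.05 by limma-trend or by limma-voom, against 2.1% of all genes by limma-trend, and the lowest adjusted P was 1. Their median log2FC was 0.03, with 20 genes above 0, against -0.01 over all genes tested. In none of the 35 did the wildtype and sam1Δ/sam1Δ libraries lie apart, while they did for 6.53% of all genes. The 95% intervals all spanned 0, had a median half-width of 1.5 and reached from -1.95 to 2.14, so a change of 2-fold in either direction lay outside the interval for 1 gene, UTP22. Without wildtype replicate 1 the median was 0.63 with 35 of 35 genes above 0, and without wildtype replicate 2 it was -0.35 with 0 above 0.

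In sam2Δ/sam2Δ the processome genes were lower than wildtype by their median, but by less than the spread between libraries. The median log2FC was -0.35, with 30 genes below 0 and 5 above, against -0.01 over all genes. The limma call took in 0 of 35 members, against 9.85% of the 6099 genes tested, with 0 members at an unadjusted P up to 0.05 by limma-trend or limma-voom, against 13.3% of all genes by limma-trend, and a lowest adjusted P of 0.67, for MPP10. Groups lay apart for 0 of 35 members and for 22.3% of all genes. All 35 intervals spanned 0, with a median half-width of 1.53 and bounds from -2.54 to 2.14. Without wildtype replicate 1 the median turned to 0.32, with 31 genes above 0. Without sam2Δ/sam2Δ replicate 3, the library with the alpha-cell markers, it was -0.88 with 0 genes above 0. With both libraries left out, an alternative chosen after seeing the data, it was -0.20, and UTP8, a UTP-A subunit, was called with a log2FC of -0.59 and an unadjusted P of 0.020 by limma. That is 1 of 35 members against 11.1% of all genes in the same fit.

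The mutants were also compared directly in a fit of all 9 libraries. The median log2FC of sam2Δ/sam2Δ against sam1Δ/sam1Δ was -0.31, with 4 genes above 0 and an all-gene median of -0.01. No member was called, against 10.2% of the 6139 genes tested, 0 reached an unadjusted P up to 0.05 by limma-trend or limma-voom, against 16.7% of all genes by limma-trend, and the lowest adjusted P was 0.57. Groups lay apart for 0 of 35 members and for 25.4% of all genes. The comparison shares its libraries with the other pair. Leaving out sam2Δ/sam2Δ replicate 3 gave a median of -0.82, and leaving out sam2Δ/sam2Δ replicate 1 gave 0.06.

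**Figure D4:**
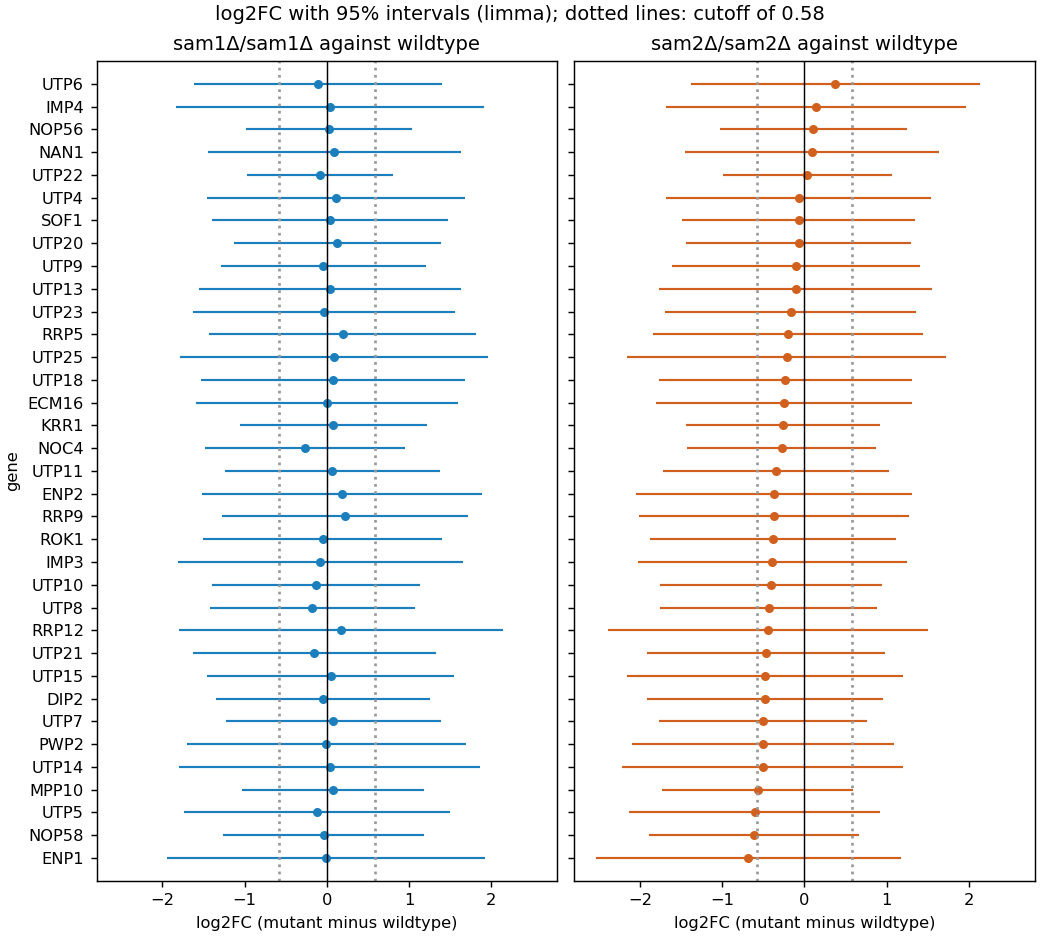
Points and lines give each gene's log2FC against wildtype with its 95% interval from limma, for sam1Δ/sam1Δ on the left and sam2Δ/sam2Δ on the right, in the order of the sam2Δ/sam2Δ values. Every interval crosses 0, the sam1Δ/sam1Δ points lie between -0.27 and 0.22, and those of sam2Δ/sam2Δ between -0.68 and 0.38.

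The members are taken below by the part of the particle they build. UTP-A, the complex that binds the 5′ end of the precursor and is also tied to its transcription, was represented by UTP4, UTP5, UTP8, UTP9, UTP10, UTP15 and NAN1. Their median log2FC was -0.04 in sam1Δ/sam1Δ and -0.41 in sam2Δ/sam2Δ. These medians became 0.52 and 0.13 without wildtype replicate 1. UTP5 (YDR398W) had a signal of 2470, 639 and 654 in wildtype, 465, 1381 and 1251 in sam1Δ/sam1Δ, then 365, 647 and 1235 in sam2Δ/sam2Δ. Its groups overlapped, wildtype replicate 1 being the highest of all 9 libraries. Its log2FC in sam2Δ/sam2Δ was -0.61 (SE 0.64, unadjusted P = 0.377 by limma), and 0.04 without that library. UTP8 (YGR128C) had 880, 349 and 405 in wildtype, 234, 684 and 539 in sam1Δ/sam1Δ, then 220, 285 and 800 in sam2Δ/sam2Δ. The groups again overlapped, with log2FC values of -0.18 (SE 0.51) in sam1Δ/sam1Δ and -0.44 (SE 0.56) in sam2Δ/sam2Δ. NAN1 (YPL126W), taken up after its values were seen, had 2781, 686 and 833 in wildtype, 663, 1776 and 1635 in sam1Δ/sam1Δ, then 721, 1045 and 2543 in sam2Δ/sam2Δ, with log2FC values of 0.09 in both mutants.

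UTP-B, which binds next along the precursor, was represented by PWP2, UTP6, DIP2, UTP13, UTP18 and UTP21, with median log2FC values of -0.03 and -0.35 in sam1Δ/sam1Δ and sam2Δ/sam2Δ. These medians became 0.58 and 0.30 without wildtype replicate 1. UTP6 (YDR449C) had the highest log2FC of all members in sam2Δ/sam2Δ. Its signal was 367, 98.2 and 112 in wildtype, 77.6, 205 and 203 in sam1Δ/sam1Δ, then 123, 126 and 572 in sam2Δ/sam2Δ. Replicate 3 of sam2Δ/sam2Δ was the highest of all 9 libraries and the groups overlapped. The log2FC against wildtype was 0.38 (SE 0.74, unadjusted P = 0.628 by limma) and turned to -0.36 without that library. Against sam1Δ/sam1Δ it was 0.48 (SE 0.73), and -0.25 without that library. UTP21 (YLR409C) had 1220, 347 and 423 in wildtype, 257, 752 and 673 in sam1Δ/sam1Δ, then 223, 381 and 795 in sam2Δ/sam2Δ. With overlapping groups its log2FC was -0.15 (SE 0.61) in sam1Δ/sam1Δ and -0.47 (SE 0.61) in sam2Δ/sam2Δ.

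UTP22 (YGR090W), the UTP-C subunit, was the steadiest member. Its signal was 1233, 504 and 608 in wildtype, 528, 814 and 735 in sam1Δ/sam1Δ, then 529, 636 and 1214 in sam2Δ/sam2Δ. The groups overlapped, and the highest and lowest libraries differed 2.45-fold, against 9.24-fold for ENP1. Its log2FC was -0.09 (95% interval -0.98 to 0.80) in sam1Δ/sam1Δ and 0.04 (-0.99 to 1.07) in sam2Δ/sam2Δ, and 0.12 (SE 0.40) between the mutants. Among the casein kinase 2 genes, CKA1, a catalytic subunit, was the only one called. Its signal was 440, 536 and 423 in wildtype, 403, 422 and 418 in sam1Δ/sam1Δ, then 783, 573 and 870 in sam2Δ/sam2Δ. All 3 sam2Δ/sam2Δ libraries lay above the other 6, with a log2FC of 0.66 (SE 0.21, unadjusted P = 0.019, adjusted P = 0.284 by limma) against wildtype and 0.82 (SE 0.18, adjusted P = 0.081 by limma) against sam1Δ/sam1Δ. Without sam2Δ/sam2Δ replicate 3 the call against wildtype was lost, at 0.53 (SE 0.23, unadjusted P = 0.063 by limma), and it held in 3 of the 6 fits with 1 library left out. The call against sam1Δ/sam1Δ held in 9 of 9 such fits, at 0.69 to 0.99.

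The U3 snoRNP was represented by NOP56 and NOP58, core proteins of all box C/D particles, and by RRP9, which is specific to U3. NOP58 (YOR310C) had the highest mean signal per kb of coding sequence among the 35 genes, 2229 over the 9 libraries. Its signal was 7171, 2284 and 2779 in wildtype, 2228, 4679 and 4048 in sam1Δ/sam1Δ, then 1328, 2553 and 3740 in sam2Δ/sam2Δ. The groups overlapped, with wildtype replicate 1 highest and sam2Δ/sam2Δ replicate 1 lowest. Its log2FC was -0.04 (SE 0.50) in sam1Δ/sam1Δ and -0.61 (SE 0.54, unadjusted P = 0.291 by limma) in sam2Δ/sam2Δ, the latter ranging from -0.95 with sam2Δ/sam2Δ replicate 3 left out to -0.11 with wildtype replicate 1 left out.

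NOP56 (YLR197W) had a signal of 5008, 1941 and 2053 in wildtype, 2057, 3406 and 3028 in sam1Δ/sam1Δ, then 1836, 2899 and 4716 in sam2Δ/sam2Δ. Its groups overlapped, and its log2FC was 0.03 (SE 0.42) and 0.11 (SE 0.48), the latter -0.23 without sam2Δ/sam2Δ replicate 3. RRP9 (YPR137W) had 915, 252 and 312 in wildtype, 244, 696 and 668 in sam1Δ/sam1Δ, then 161, 264 and 782 in sam2Δ/sam2Δ. It overlapped between strains too, with the highest log2FC of the members in sam1Δ/sam1Δ, 0.22 (SE 0.62, unadjusted P = 0.735 by limma), and -0.37 (SE 0.69) in sam2Δ/sam2Δ. These 3 genes share a locus with an annotated open reading frame that overlaps them, so their levels carry the assumptions by which the authors' program assigned reads. Only NOP58 had values that were not whole reads, such as 4609.7 in wildtype replicate 3. Those of NOP56 and RRP9 were whole. The U3 RNA gene snR17a had a signal of 35.1 to 109 over the 9 libraries, but the RNA has no poly-A tail, so these values do not measure its amount.

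The Mpp10 complex binds the precursor together with U3 and consists of MPP10, IMP3 and IMP4. MPP10 (YJR002W) had a signal of 3227, 1235 and 1330 in wildtype, 1169, 2308 and 2293 in sam1Δ/sam1Δ, then 728, 1122 and 1981 in sam2Δ/sam2Δ. Replicates 1 and 2 of sam2Δ/sam2Δ were below every other library, and replicate 3 was inside the range of the others. Its log2FC of -0.64 (SE 0.48, unadjusted P = 0.217 by limma) against sam1Δ/sam1Δ and -0.57 (SE 0.49, unadjusted P = 0.283 by limma) against wildtype had the lowest P of all members in both comparisons, with -0.13 against wildtype when wildtype replicate 1 was left out. Against sam1Δ/sam1Δ it ran from -1.02 with sam2Δ/sam2Δ replicate 3 left out to -0.30 with sam2Δ/sam2Δ replicate 1 left out. IMP4 (YNL075W) had 1186, 199 and 297 in wildtype, 199, 650 and 588 in sam1Δ/sam1Δ, then 288, 311 and 1055 in sam2Δ/sam2Δ. The groups overlapped, with a log2FC of 0.14 (SE 0.77) in sam2Δ/sam2Δ and 0.11 (SE 0.77) between the mutants, and the first was -0.46 without sam2Δ/sam2Δ replicate 3. IMP3 had log2FC values of -0.08 and -0.39 against wildtype.

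The RNA helicases ROK1 and ECM16, the latter also called Dhr1 and known for displacing U3 from the precursor, had log2FC values of -0.05 and 0.00 in the sam1Δ/sam1Δ comparison, and of -0.38 and -0.25 in the other. UTP14, the activator of Dhr1, had 0.04 and -0.51.

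Among the 13 other assembly factors the median log2FC was 0.08 in sam1Δ/sam1Δ, with 10 genes above 0, and -0.28 in sam2Δ/sam2Δ, with 0 above 0. The sam2Δ/sam2Δ median turned to 0.32 with 12 genes above 0 when wildtype replicate 1 was left out, so its direction rests on that library. ENP1 (YBR247C), which stays on the maturing small subunit as it leaves the nucleus, had the widest range of all. Its signal was 2376, 430 and 531 in wildtype, 351, 1326 and 1137 in sam1Δ/sam1Δ, then 257, 438 and 1166 in sam2Δ/sam2Δ. Wildtype replicate 1 was above every other library, sam2Δ/sam2Δ replicate 1 below, and the groups overlapped. Its log2FC in sam2Δ/sam2Δ was the lowest of the members, -0.68 (SE 0.78, unadjusted P = 0.412 by limma), but 0.09 when wildtype replicate 1 was left out and -1.28 when sam2Δ/sam2Δ replicate 3 was. Against sam1Δ/sam1Δ it was -0.67 (SE 0.80), from -1.27 with sam2Δ/sam2Δ replicate 3 or sam1Δ/sam1Δ replicate 1 left out to -0.18 with sam2Δ/sam2Δ replicate 1 left out.

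RRP12 (YPL012W), which takes part in subunit export, had a signal of 3323, 595 and 626 in wildtype, 540, 1894 and 1728 in sam1Δ/sam1Δ, then 410, 621 and 1942 in sam2Δ/sam2Δ. The spread within each strain again exceeded the difference between strains, with log2FC values of 0.17 (SE 0.81), -0.44 (SE 0.82) and -0.61 (SE 0.83) in sam1Δ/sam1Δ, in sam2Δ/sam2Δ and between the mutants. The last of these ran from -1.26 to -0.14, again with sam2Δ/sam2Δ replicate 3 and then replicate 1 left out. RRP5 (YMR229C), which serves both ribosomal subunits, had 3824, 856 and 1054 in wildtype, 904, 2449 and 2326 in sam1Δ/sam1Δ, then 795, 1000 and 2866 in sam2Δ/sam2Δ, with a log2FC of 0.19 (SE 0.67) in sam1Δ/sam1Δ. ENP2 (YGR145W) had 2068, 428 and 573 in wildtype, 447, 1359 and 1211 in sam1Δ/sam1Δ, then 346, 510 and 1338 in sam2Δ/sam2Δ, with a log2FC of 0.18 (SE 0.70) in sam1Δ/sam1Δ. The groups of both genes overlapped.

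NOC4 (YPR144C), a partner of Nop14, had the lowest log2FC of the members in sam1Δ/sam1Δ. Its signal was 2023, 657 and 791 in wildtype, 527, 1151 and 988 in sam1Δ/sam1Δ, then 612, 730 and 1321 in sam2Δ/sam2Δ. Its groups overlapped, and the log2FC of -0.27 (SE 0.50, unadjusted P = 0.609 by limma) became 0.23 without wildtype replicate 1. UTP20 (YBL004W), a very long protein of HEAT repeats, had the lowest mean signal per kb, 153 over the 9 libraries. Its signal per gene was 2181, 644 and 751 in wildtype, 728, 1445 and 1312 in sam1Δ/sam1Δ, then 618, 797 and 1854 in sam2Δ/sam2Δ. The groups overlapped, with log2FC values of 0.13 (SE 0.52) and -0.07 (SE 0.58). The remaining factors were SOF1, UTP7, UTP11, UTP14, UTP23, UTP25 and KRR1, and none had a log2FC above 0.09 or below -0.51 in either mutant.

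Levels per kb differed among subunits of one complex. In wildtype, signal per kb was 2655 ± 1751 (SD, n = 3) for NOP58, 1981 ± 1148 for NOP56 and 286 ± 213 for RRP9. KRR1, an RNA-binding factor with a KH domain, was close to the core box C/D proteins at 2337 ± 1401. These SDs mostly reflect the shared swing of the libraries, and the ranks of neighbouring genes are not separated by them. Over the 9 libraries the mean per kb ran from 214 to 524 within UTP-A, from 158 to 357 within UTP-B and from 607 to 960 within the Mpp10 complex.

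The shared swing can be set aside by reading each gene against the median of the 35 genes in the same library. The 5 genes shown this way were chosen after their values were seen. limma was also fitted to the whole table with each library scaled to its median member, a scaling chosen after seeing the data too, and it called 0 of 35 members in all 3 comparisons, against 0.245%, 0.522% and 1.09% of all genes. None reached an unadjusted P up to 0.05 by limma, the lowest being 0.643, 0.363 and 0.168. In the 42 fits made on this scale, which include other settings and each library left out, 0 were called. All of these fits share the scaling, so they are not separate checks. The members' SEs in this fit were 0.47 to 0.74, and the median SE over all genes was 0.73, 0.83 and 0.74. On the same scale the members' own within-strain SDs ran from only 0.03 for NAN1 to 0.39 for UTP22. limma draws each SE toward those of other genes, and this scaling puts the swing into genes that do not follow the members. The members' SEs therefore came mainly from other genes, and the lack of calls is not read as a lack of difference. The groups of 3, 7 and 7 members did not overlap in the 3 comparisons, against 1.73%, 2.84% and 3.24% of all genes. The scaling removes the shared swing from the members by construction, and also from genes that follow them, such as the other assembly factors, but not from the rest, so nothing is read from these shares.

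NAN1 lay 0.73, 0.67 and 0.65 above the median gene in wildtype on the log2 scale, 0.81, 0.81 and 0.79 in sam1Δ/sam1Δ, then 1.06, 1.04 and 1.08 in sam2Δ/sam2Δ. The 3 strains did not overlap on this scale. The difference of sam2Δ/sam2Δ from wildtype was 0.37 (SE 0.70, unadjusted P = 0.602 by limma), with an SE that came mainly from other genes. UTP6 lay at -2.19, -2.12 and -2.23 in wildtype, -2.27, -2.30 and -2.21 in sam1Δ/sam1Δ, then -1.49, -2.00 and -1.07 in sam2Δ/sam2Δ. All 3 sam2Δ/sam2Δ libraries were above the other 6. The difference from wildtype was 0.66 (SE 0.70, unadjusted P = 0.363 by limma) and that from sam1Δ/sam1Δ 0.74 (SE 0.50, unadjusted P = 0.168 by limma). Neither passed the cutoffs, with SEs that again came mainly from other genes.

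The same UTP6 values can be read per kb within UTP-B, which restates them and is not a second observation. UTP6 stood at 0.517, 0.457 and 0.438 of the median of the other 5 subunits in wildtype, at 0.403, 0.467 and 0.460 in sam1Δ/sam1Δ, then at 0.868, 0.615 and 1.10 in sam2Δ/sam2Δ. ENP1 lay at 0.51, 0.00 and 0.00 against the median gene in wildtype, -0.11, 0.38 and 0.27 in sam1Δ/sam1Δ, then -0.43, -0.22 and -0.05 in sam2Δ/sam2Δ, with sam1Δ/sam1Δ overlapping both other strains. NOP56 and NOP58, partners in the same particle, had differences of sam2Δ/sam2Δ from wildtype of 0.39 and -0.33 on this scale, each with an SE of 0.74.

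**Figure D5:**
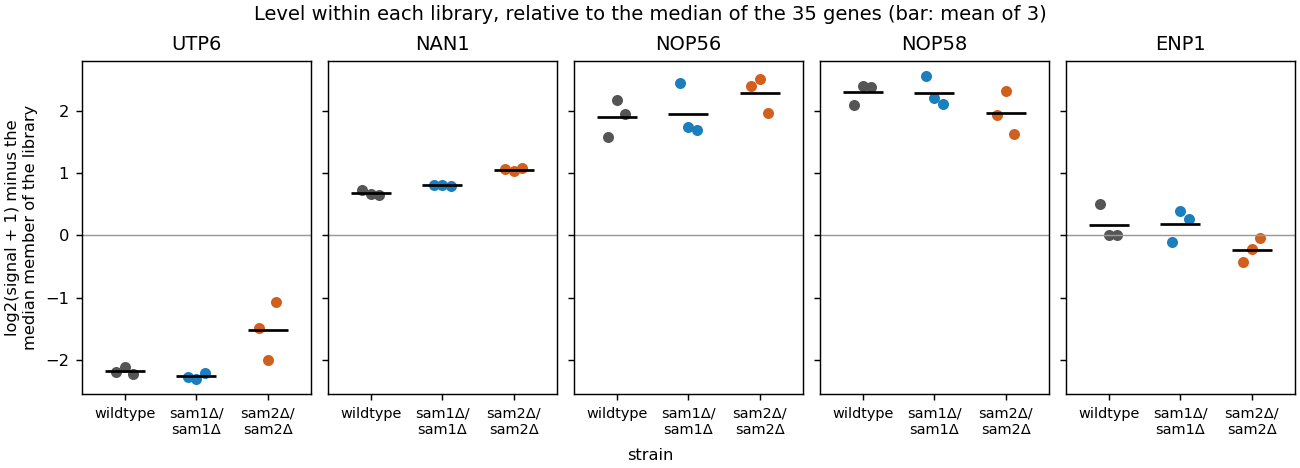
Points are libraries and bars the mean of 3, as log2(signal + 1) of a gene minus the median of the 35 genes in that library. The genes were chosen after their values were seen. None passed the cutoffs on this scale, in fits whose SEs came mainly from other genes. NAN1 lies at 1.04 to 1.08 in sam2Δ/sam2Δ and 0.65 to 0.73 in wildtype. The 3 sam2Δ/sam2Δ points of UTP6 lie above the other 6, and NOP56, NOP58 and ENP1 spread within strains.

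Other genes of the pathway gave few calls. Of the 31 other processome factors 0 were called in either mutant, with a median of 0.06 for the first mutant and -0.29 for the second, and 0 had an unadjusted P up to 0.05. The 61 large-subunit assembly factors also gave 0 calls, with medians of 0.04 and -0.29, as did the 14 late factors of the small subunit, with 0.00 and -0.28. Without wildtype replicate 1 the sam2Δ/sam2Δ medians of these lists turned to 0.31, 0.31 and 0.16, and 1 large-subunit factor was called. The paper, with another test at the same cutoffs, reported NOP1, EMG1, NOP2, BUD23 and TRM112 of these lists as lower in sam2Δ/sam2Δ. Here NOP1 was at -0.93 (SE 0.63, unadjusted P = 0.186 by limma) and EMG1 at -0.85 (SE 0.60, unadjusted P = 0.205 by limma). In the list of RNA polymerase I and its factors 1 of 15 genes was called lower in sam2Δ/sam2Δ, RRN5, which encodes a subunit of the upstream activating factor. Its signal was 77.7, 120 and 89.5 in wildtype and 54.4, 60.0 and 40.7 in sam2Δ/sam2Δ, with no overlap and a log2FC of -0.87 (SE 0.27, adjusted P = 0.275 by limma), which was -0.71 without sam2Δ/sam2Δ replicate 3 and still called, as in 5 of 6 fits with 1 library left out. RRN5 was called lower against sam1Δ/sam1Δ too, with a log2FC of -0.71 (SE 0.22, adjusted P = 0.163 by limma). That call held in 8 of 9 fits with 1 library left out and was lost without sam2Δ/sam2Δ replicate 3, at -0.55. RRN9, of the same factor, was called higher against sam1Δ/sam1Δ, at 465, 451 and 406 against 267, 293 and 298. Its log2FC was 0.62 (SE 0.12, adjusted P = 0.067 by limma), and the call held in 8 of 9 such fits.

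Ribosomal protein genes gave 1 call of 131 in sam1Δ/sam1Δ, RPL41B with a log2FC of -0.83, and 2 in sam2Δ/sam2Δ, RPL28 with -0.69 and RPS28A with -0.58, all lower, while RPS10B was called higher against sam1Δ/sam1Δ with 0.59. RPL28 and RPS28A lost their calls without wildtype replicate 1, at -0.48 and -0.52, and without sam2Δ/sam2Δ replicate 3, at -0.58 and -0.51. RPL41B fell below the filter on low signal when any wildtype library was left out and could not be tested then. RPS10B kept its call in both cases, and in 6 of 9 fits with 1 library left out. Among the 9 regulators, which include Dot6, Tod6 and Stb3, 0 were called in any comparison by limma, and 0, 1 and 2 reached an unadjusted P up to 0.05 in sam2Δ/sam2Δ, in sam1Δ/sam1Δ and between the mutants. These were CRF1 in sam1Δ/sam1Δ, with a log2FC of -0.48, and DOT6 and STB3 between the mutants, with -0.41 and -0.34. TOD6 was not alone in following the processome genes, as IFH1 and FHL1 did too. TOD6 had a signal of 2307, 541 and 557 in wildtype, 524, 1386 and 1355 in sam1Δ/sam1Δ, then 373, 534 and 1455 in sam2Δ/sam2Δ. Stress genes gave 0 calls of 25 in sam1Δ/sam1Δ and 1 in sam2Δ/sam2Δ, SOD2 with a log2FC of -0.78, and between the mutants CTT1 was called higher with 0.69 and SOD2 lower with -0.64. These counts depend on wildtype replicate 1, without which 5 of 25 stress genes were called lower in sam1Δ/sam1Δ, with a list median of -0.87 instead of -0.19 and 355 calls among all genes, and the list median in sam2Δ/sam2Δ turned from 0.31 to -0.40. SOD2 lost its call against wildtype without that library, at -0.53, and without sam2Δ/sam2Δ replicate 3, at -0.77, and between the mutants without the latter, at -0.63. CTT1 kept its call in 9 of 9 fits with 1 library left out.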

How the data were processed

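The authors joined 36 single-end read files into 9 libraries, made with a stranded poly-A kit, aligned them untrimmed with TopHat2 2.0.13 to R64-1-1, and made gene values with the Cufflinks programs 2.2.1, per the labels Cuffnorm. The deposited table holds signal, a gene's estimated reads over the size factor of its library. The annotation release and the normalization setting are not given in the sources used here. The step of each library, the signal of 1 read, was read from its low values.

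limma 3.58.1 in R 4.3.3, with a mean-variance trend, was fitted to log2(signal + 1) for genes whose signal reached 10 in 3 or more libraries, over 6 libraries for each mutant against wildtype and over 9 for the mutants, with Benjamini-Hochberg adjustment over all genes tested. A fold change on this scale understates low genes. limma was tested on simulated data in which each gene varied on its own, so that test does not cover genes that move together. A count test had been planned, but the unit is not counts. The members and gene lists were chosen with earlier results of these data known. With fewer than 3 called members, those printed in every library were the 3 with the largest log2FC in each direction per comparison, the highest and lowest per kb, and the U3 snoRNP genes. In the other lists up to 3 called genes were named. Coding lengths and promoters came from the RefSeq R64 reference, whose coordinates equalled the table's for 32 members, and the other 3 share a locus. Tables and figures used Python 3.11.15, numpy 2.4.6, pandas 2.3.3 and matplotlib 3.10.9. Alternatives changed the pseudocount, filter, scaling, libraries, model and call rule. Added after seeing the data were a fit without 2 libraries and a fit with each library scaled to its median member.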

Additional observations from a re-analysis of the deposited data

How the results depend on the processing

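Calls of members stayed at 0 of 35 in each comparison under every alternative run, except that 1 gene was called in sam2Δ/sam2Δ against wildtype with wildtype replicate 1 and sam2Δ/sam2Δ replicate 3 both left out. Leaving out each library in turn gave 0 to 0 calls and median log2FC values of -0.35 to 0.63 in sam1Δ/sam1Δ, -0.88 to 0.32 in sam2Δ/sam2Δ and -0.82 to 0.06 between the mutants, so the direction of every median depends on 1 library. Scaling to library total shifted the all-gene median to 0.09, 0.15 and 0.05 and the member median to 0.13, -0.19 and -0.25. Under it NOP58 was at 0.06 in sam1Δ/sam1Δ and UTP20 at 0.09 in sam2Δ/sam2Δ, both of opposite sign to before. Of the 2 libraries that stand apart, only wildtype replicate 1 is part of the sam1Δ/sam1Δ fit. Without it NOC4, UTP8 and UTP21 were at 0.23, 0.23 and 0.40 and NOP58 at 0.47 in sam1Δ/sam1Δ. With both left out, UTP20 was at 0.01 in sam2Δ/sam2Δ. Over the single left-out libraries, log2FC in sam1Δ/sam1Δ ranged from -0.58 to 0.23 for NOC4, -0.49 to 0.28 for UTP8, -0.50 to 0.40 for UTP21, -0.27 to 0.87 for ENP2, -0.22 to 0.86 for RRP5, -0.14 to 0.79 for RRP9, -0.21 to 0.47 for NOP56, -0.36 to 0.47 for NOP58 and -0.20 to 0.68 for UTP20. In sam2Δ/sam2Δ it ranged from -1.28 to 0.09 for ENP1, -1.05 to 0.04 for UTP5, -0.23 to 0.55 for NOP56, -0.46 to 0.90 for IMP4, -0.36 to 0.97 for UTP6, -1.01 to 0.20 for RRP9 and -0.54 to 0.48 for UTP20. Between the mutants it ranged from -1.27 to -0.18 for ENP1, -1.26 to -0.14 for RRP12, -1.02 to -0.30 for MPP10, -0.50 to 0.44 for IMP4, -0.23 to 0.37 for UTP22 and -0.25 to 0.86 for UTP6. Scaled to the median member of each library, a choice made after seeing the data, 0 members were called in all 3 comparisons and 15, 32 and 67 genes in all. The members' SEs came mainly from other genes there, so that lack of calls is not read. On this scale UTP20 was at 0.21 in sam2Δ/sam2Δ, again of opposite sign. Replicate numbers are those of the sample titles, while the authors' own labels number the mutant libraries otherwise. Equal numbers therefore need not mark a pair, and a check by them cannot decide whether libraries were paired. Between strains, deviations from the strain means correlated at -0.845 to 0.690 for same-numbered libraries and at -0.705 to 0.841 for differently numbered ones. With the replicate block 0 members were called and the medians were 0.03, -0.35 and -0.31, which a block cannot move in this balanced design. In all, 51, 389 and 523 genes were called with the block, against 70, 601 and 625 without it. An adjusted P up to 0.05 left 6, 7 and 37 genes in all. edgeR and DESeq2 on recovered reads were not run. The cause of these shifts was not tested. The 95% intervals of the members had median half-widths of 1.5, 1.53 and 1.49, which limits what 3 libraries a strain can show.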
